A study of Mus musculus with 18 samples.

Results

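DNA replication and S phase genes, a listed group of 33 genes whose products license, open and copy the genome, were followed in whole mouse lung. Of these, 32 were measured among 18193 genes, each through 1 probe set, the brightest on average across 18 arrays of those assigned to no other gene. Chaf1a was not analysed here.

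Whole lungs of male mice aged 16 weeks were hybridised to Affymetrix expression arrays, with 1 array per mouse and 3 mice in each of 6 groups. Mice of the strains A/J and C57BL/6 each received 1 of 3 treatments. All 18 mice had been sensitized to ovalbumin, the egg white protein that serves as allergen in this model, by 3 intraperitoneal injections of 100 µg in alum, so no group was unsensitized. The resiquimod group (RSQ) inhaled 1% ovalbumin and had received intraperitoneal injections of 100 µg resiquimod, also called S-28463 or R-848, 24 h before each challenge. Resiquimod is a synthetic compound that activates Toll-like receptor 7. The ovalbumin group (OVA) inhaled 1% ovalbumin without resiquimod, and the PBS group inhaled PBS. Aerosol exposure lasted 30 min and was repeated over 3 days, starting 7 days after sensitization ended. The labels list neither a group given resiquimod without ovalbumin nor a vehicle injection, so what resiquimod does alone, what it does to allergen responses and what injection does cannot be told apart. Nothing in the labels says whether the mice of a group shared a cage or a day, so each p-value reflects the variation among these arrays only.

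Before a cell divides it must copy its genome once. Origin recognition and licensing factors load the Mcm2-7 helicase onto DNA, helper proteins activate it, and polymerases, a sliding clamp and its loader, nucleases and a ligase then copy both strands, while enzymes of nucleotide synthesis supply the building blocks. Many of these genes are transcribed at the entry into S phase under E2F transcription factors, and in lung they mark dividing cells, which in allergic inflammation include leukocytes as well as resident cells.

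Values are log2 signals, and changes are log2 differences ± SE from limma's moderated test with 3 arrays per group. A gene was called, and is said to have risen or fallen, at a Benjamini-Hochberg adjusted p under 0.05 over 45037 probe sets. With 3 arrays per group, precision is limited throughout. The median within-group SD of the 32 genes was between 0.103 and 0.141. Tyms and Ccne2, with means of 3.21 and 3.10, were among the weakest signals, below 3.33, the 25th percentile. In whole lung, fewer or more dividing cells and less or more RNA per cell cannot be told apart. A list of 8 transcripts that mark lung epithelium and endothelium, such as Sftpc and Scgb1a1, had a mean between 12.32 and 12.55 on all arrays. That mean hides changes of single genes, some of which were called higher and some lower.

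Some arrays stood apart. In the gene Nnt, which C57BL/6J mice are known to carry in a defective form, the C57BL/6 arrays read 8.35, 8.41 and 8.27 for RSQ, 8.45, 8.35 and 8.40 for OVA and 7.04, 7.27 and 6.90 for PBS. Nnt was thus lower on each C57BL/6 PBS array than on the other C57BL/6 arrays, and Wdfy1 was also lower there than in C57BL/6 OVA lungs, with means of 7.36 for OVA and 6.31 for PBS. Lrmda was higher on the C57BL/6 PBS arrays, with C57BL/6 means of 4.49 for RSQ, 4.61 for OVA and 5.81 for PBS. These genes were picked after their values were seen. The sample titles name C57BL/6 without a subline, so whether those mice were of another subline is not known. In comparisons that use the C57BL/6 PBS arrays, a possible difference between sublines of mice and the treatment cannot be told apart. The comparison of RSQ with OVA in C57BL/6 and all comparisons within A/J do not set values against those arrays. Separately, 8 arrays (A/J RSQ 1, A/J OVA 1 and 3, A/J PBS 1, C57BL/6 RSQ 2, C57BL/6 OVA 1, C57BL/6 PBS 1 and 3) carried transcripts of squamous mucosa, with a list mean of 7.36 or more against 4.48 or less on the other 10. The main counts are therefore also given for a fit on those 10 arrays. That fit holds 1 A/J OVA array, 1 C57BL/6 PBS array and 2 arrays of each other group, so a group of 1 has no spread of its own and is assumed to vary like the others.

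The first question was how these genes differ between lungs challenged with ovalbumin and lungs challenged with PBS. In both strains genes of nucleotide supply, the helicase and its loading, the sliding clamp, fragment joining and chromatin copying rose after ovalbumin. In A/J 20 of 32 rose and 0 fell, where 3.20% of all genes rose, and the median change was 0.46 against -0.00435 for all genes. In C57BL/6 15 of 32 rose and 0 fell, where 1.44% of all genes rose, and the median change was 0.49 against 0.00473 for all genes. Of these, 14 rose in both strains. All 3 OVA arrays lay above all 3 PBS arrays for 25 of the 32 genes in A/J and for 26 in C57BL/6, against 12.4% and 10.6% of all genes.

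Nucleotide supply genes showed the widest range of changes. Rrm2, the small subunit of ribonucleotide reductase that makes deoxynucleotides, read 6.93, 6.55 and 7.04 on the A/J OVA arrays and 4.83, 5.05 and 5.12 on the A/J PBS arrays. In C57BL/6 it read 6.61, 7.22 and 6.98 for OVA and 5.04, 5.45 and 5.22 for PBS. The groups did not overlap in either strain. Rrm2 rose 3.58-fold in A/J (1.84 ± 0.15, adjusted p = 2.16e-06) and 3.25-fold in C57BL/6 (1.70 ± 0.15, adjusted p = 8.46e-06). Tk1, the thymidine kinase that salvages thymidine in S phase, read 6.06, 5.34 and 5.80 for OVA and 4.62, 4.60 and 4.64 for PBS in A/J, and 5.54, 5.74 and 5.56 for OVA and 4.42, 4.37 and 4.48 for PBS in C57BL/6. Every OVA array exceeded every PBS array of its strain, and Tk1 rose by 1.11 ± 0.13 in A/J and by 1.19 ± 0.13 in C57BL/6. Rrm1, the large subunit of ribonucleotide reductase, rose in C57BL/6 (0.53 ± 0.09), while its A/J change was 0.30 ± 0.09 with adjusted p = 0.0955. Tyms, the thymidylate synthase, had changes of 0.11 ± 0.13 in A/J and 0.01 ± 0.13 in C57BL/6 at a signal too weak to follow a fall.

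Among the genes of chromatin copying, Uhrf1, which carries DNA methylation over to the new strand, read 6.36, 6.10 and 6.34 for OVA and 4.50, 4.45 and 4.75 for PBS in A/J. In C57BL/6 it read 5.96, 6.39 and 6.09 for OVA and 4.83, 4.86 and 5.02 for PBS. The OVA arrays lay above the PBS arrays in both strains, with rises of 1.70 ± 0.13 in A/J (adjusted p = 5.43e-07) and 1.24 ± 0.13 in C57BL/6 (adjusted p = 3.39e-05). Chaf1b, a subunit of the assembly factor that places histones on new DNA, had changes of 0.28 ± 0.17 and 0.60 ± 0.17, neither of which passed the test.

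All 6 subunits of the Mcm2-7 helicase rose in A/J and 5 of 6 in C57BL/6, with a median change of 0.56 in each strain. Mcm5 read 7.58, 7.37 and 7.71 for OVA and 6.33, 6.70 and 6.60 for PBS in A/J, and 7.36, 7.69 and 7.60 for OVA and 6.40, 6.46 and 6.43 for PBS in C57BL/6. The groups did not overlap, and Mcm5 rose 2.01-fold in A/J and 2.17-fold in C57BL/6. Mcm3 rose by 0.67 ± 0.10 in A/J and 0.60 ± 0.10 in C57BL/6, Mcm6 by 0.63 ± 0.08 and 0.55 ± 0.08, Mcm2 by 0.48 ± 0.09 and 0.57 ± 0.09, and Mcm7 by 0.39 ± 0.09 and 0.49 ± 0.09. Mcm4 rose in A/J (0.33 ± 0.08) and had a change of 0.34 ± 0.08 in C57BL/6 (adjusted p = 0.0622). Of the factors that load the helicase, Cdt1 rose in A/J (0.73 ± 0.12) and in C57BL/6 (0.57 ± 0.12), and Cdc6 rose in A/J (0.79 ± 0.18). The change of Cdc6 in C57BL/6 was 0.36 ± 0.18. Orc1 and Orc6, subunits of the origin recognition complex, did not pass the test in either strain, with changes of 0.08 ± 0.10 and 0.13 ± 0.09 in A/J and 0.32 ± 0.10 and 0.05 ± 0.09 in C57BL/6.

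Of the genes that activate the helicase, Mcm10, a scaffold of the starting fork, rose by 0.47 ± 0.08 in A/J and 0.50 ± 0.08 in C57BL/6, and Gins1, a subunit of the GINS complex, by 0.40 ± 0.10 and 0.65 ± 0.10. Gins2 had changes of 0.45 ± 0.13 and 0.26 ± 0.13 that did not pass the test. Cdc45, the remaining partner of the active helicase, changed by 0.01 ± 0.08 in A/J and 0.16 ± 0.08 in C57BL/6 on the probe set used, without passing the test. A second Cdc45 probe set of similar mean (4.71 against 4.83) rose by 0.66 in A/J, so the probe sets of this gene disagree. Prim1, the primase that lays down RNA primers, rose in A/J (0.67 ± 0.12), as did Pole, the catalytic subunit of the leading strand polymerase (0.86 ± 0.19). Pola1, the catalytic subunit of the polymerase that extends primers, had changes of 0.37 ± 0.11 in A/J and 0.36 ± 0.11 in C57BL/6, and passed the test in neither. In C57BL/6 the ovalbumin changes of Prim1 (0.49 ± 0.12) and Pole (0.65 ± 0.19) also missed it.

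Pcna, the sliding clamp, rose by 0.34 ± 0.07 in A/J and 0.42 ± 0.07 in C57BL/6. Among the clamp loader subunits, Rfc4 (0.54 ± 0.11) and Rfc5 (0.51 ± 0.09) rose in A/J, while their C57BL/6 changes of 0.36 ± 0.11 and 0.37 ± 0.09 missed the test. Rfc3 had changes of -0.04 ± 0.11 in A/J and 0.04 ± 0.11 in C57BL/6. Lig1, the ligase that seals Okazaki fragments, rose by 0.68 ± 0.10 in A/J and 0.74 ± 0.10 in C57BL/6. Fen1, the nuclease that trims those fragments, had changes of 0.17 ± 0.09 and 0.28 ± 0.09 that missed the test, whereas a second Fen1 probe set rose by 0.50 in A/J and 0.61 in C57BL/6. Of the S phase entry genes, the cyclin gene Ccne2 rose by 0.81 ± 0.14 in A/J and 0.76 ± 0.14 in C57BL/6. Ccne1 and the transcription factor gene E2f1 had changes of 0.11 ± 0.16 and -0.01 ± 0.09 in A/J and 0.27 ± 0.16 and 0.18 ± 0.09 in C57BL/6, none past the test. A second Ccne1 probe set rose by 0.51 in A/J. Of the 32 genes, 24 have several probe sets, and those named here are ones that rose. With the probe sets of each gene averaged, 20 genes rose in A/J and 19 in C57BL/6. The median changes were then 0.40 and 0.39, against 0.46 and 0.49 on the probe sets used.

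**Figure D1:**
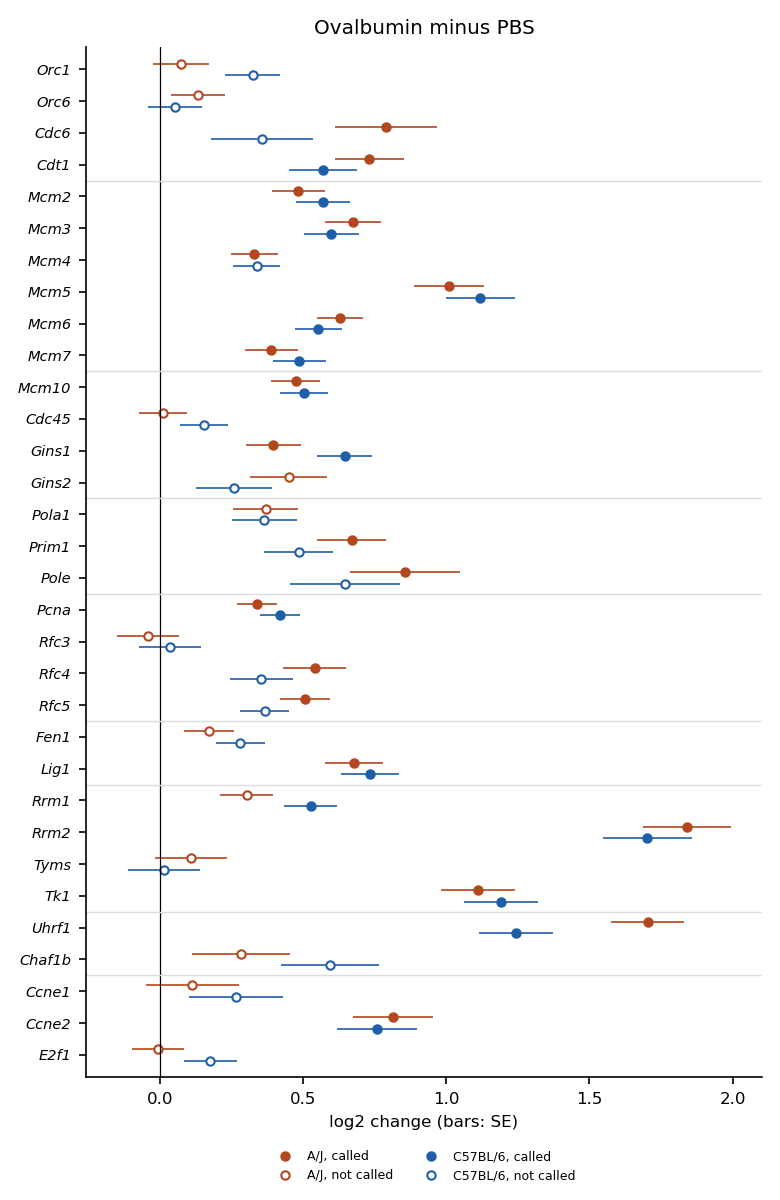
Log2 change between ovalbumin (OVA) and PBS lungs for each of the 32 genes in A/J and in C57BL/6, with bars of 1 SE; filled points passed the test at an adjusted p under 0.05. Changes run from -0.04 to 1.84 in A/J and from 0.01 to 1.70 in C57BL/6, with Rrm2, Uhrf1, Tk1 and Mcm5 farthest to the right.

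Without the array A/J OVA 3, 13 genes rose in A/J, and the calls lost were those of Mcm4, Mcm7, Pcna, Gins1, Cdc6, Rfc4 and Pole. In C57BL/6 the calls of Mcm7, Rrm1, Cdt1 and Ccne2 were lost without C57BL/6 OVA 2. On the 10 arrays without squamous mucosa transcripts, where A/J OVA and C57BL/6 PBS have 1 array each and so neither strain's comparison is fully replicated, 2 genes rose in A/J and 5 in C57BL/6, with 21 at an unadjusted p under 0.05 in each strain and median changes of 0.40 and 0.46. The test of the difference between the strains in the ovalbumin effect, by limma, called 0 of the 32 genes, 1 at an unadjusted p under 0.05, where 0.0605% of all genes were called. The median of this difference was -0.02 (A/J minus C57BL/6).

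Because many replication genes are known to be under E2F factors, RefSeq promoter windows (GRCm38.p6, from -250 to 50 around the start) were searched on both strands for E2F-type letters. The search covered the listed genes whether or not they changed here. The forms searched were TTCGCGC, its close relative TTGGCGC, the third form TTCCCGC and finally the form TTGCCGC. Matches on opposite strands may overlap. Of the 27 genes with a window, 15 held at least 1 match (55.6%), against 14.2% of the 14367 measured genes with a window and 9.69% of all 27025 windows. CCAAT was found in 59.3% of the 27 windows and in 38.2% of those of measured genes. The median GC content was 57.3% in those 27 windows and 58.7% over measured genes. A match describes the letters only, and the share follows from a list of genes known for E2F control. Rrm2, Uhrf1, Mcm5 and Mcm6 rose with ovalbumin in both strains and hold matches. Tk1, Mcm2, Mcm10, Pcna and Lig1 also rose in both strains and hold none. Rfc3 and Orc1 hold matches and passed the ovalbumin test in neither strain. Whether the letters bear on the changes was not tested. The stretches shown are from the genes with the largest mean ovalbumin change that hold a match before the start, read 5′ to 3′ on the gene's strand, with matched letters in capitals. They lie at chr12:24708004-24708045 (plus strand, -250 to -209 from the start) for Rrm2, chr17:56303269-56303315 (plus strand, -68 to -22) for Uhrf1, chr8:75109325-75109386 (plus strand, -184 to -123) for Mcm5 and chr1:128359722-128359834 (minus strand, -129 to -17) for Mcm6.
Rrm2: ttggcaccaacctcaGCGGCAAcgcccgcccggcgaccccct
Uhrf1: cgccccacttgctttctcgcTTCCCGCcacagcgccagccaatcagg
Mcm5: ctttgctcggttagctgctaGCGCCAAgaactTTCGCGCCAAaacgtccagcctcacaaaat
Mcm6: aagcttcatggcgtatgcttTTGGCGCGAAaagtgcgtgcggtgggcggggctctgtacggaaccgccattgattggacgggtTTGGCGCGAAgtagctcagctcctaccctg
The printed stretches of Rrm2 and Uhrf1 hold 1 match each, that of Mcm5 holds 3 and that of Mcm6 holds 4, and in Mcm5 and Mcm6 matches on opposite strands overlap within one run of capitals.

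**Figure D2:**
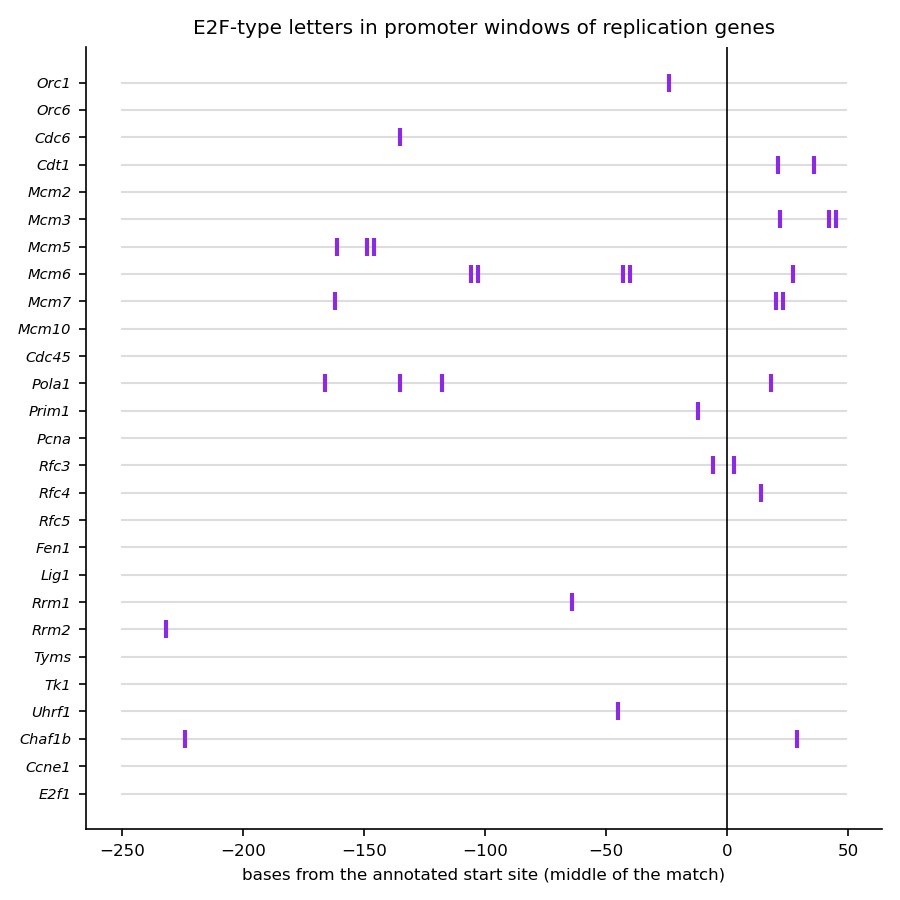
Position of E2F-type letters (both strands) in the promoter windows of the genes that have a window, as distance in bases from the RefSeq start. Matches are present in 15 of the 27 windows.

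The second question was what resiquimod given before the ovalbumin challenges did to these genes, in each strain. In C57BL/6 lungs most of the group rose with resiquimod, including all 6 Mcm2-7 subunits and all 4 genes of the clamp and its loader. In total 22 of 32 genes rose against ovalbumin alone and 0 fell, where 5.80% of all genes rose, and the median change was 0.44 against -0.02 for all genes. The 3 RSQ arrays lay above the 3 OVA arrays for 26 genes, against 14.5% of all genes. On the 10 arrays without squamous mucosa transcripts, 2 for RSQ and 2 for OVA in C57BL/6, 8 genes rose, with 26 higher at an unadjusted p under 0.05 and a median change of 0.41. Leaving out C57BL/6 RSQ 3 left 15 genes, without Mcm4, Pcna, Rrm1, Gins1, Cdc6, Pola1 and Orc6.

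Tk1 read 6.51, 6.56 and 6.57 on the C57BL/6 RSQ arrays and 5.54, 5.74 and 5.56 on the OVA arrays. No value overlapped, and Tk1 had the largest rise of the group, 1.91-fold (0.93 ± 0.13, adjusted p = 0.000188). Rrm2 read 7.76, 7.73 and 7.86 for RSQ and 6.61, 7.22 and 6.98 for OVA, and rose 1.80-fold (0.85 ± 0.15). Rrm1 rose by 0.32 ± 0.09, a call that was lost in 11 of 18 fits that left out 1 array, and Tyms had a change of 0.26 ± 0.13.

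The helicase subunit Mcm5 read 8.22, 8.17 and 8.41 for RSQ and 7.36, 7.69 and 7.60 for OVA. Mcm6 read 8.73, 8.74 and 8.80 for RSQ and 8.04, 8.12 and 8.03 for OVA, close together within each group. Both were higher on every RSQ array, and rose by 0.71 ± 0.12 and 0.69 ± 0.08 (adjusted p = 0.00118 and 3.88e-05). Mcm3 rose by 0.52 ± 0.10, Mcm7 by 0.47 ± 0.09, Mcm2 by 0.42 ± 0.09 and Mcm4 by 0.29 ± 0.08. Among the loading factors, Cdc6 read 5.38, 5.29 and 5.30 for RSQ and 4.19, 4.64 and 5.01 for OVA. The RSQ arrays were close together and above the wider OVA group, a rise of 0.71 ± 0.18 (adjusted p = 0.0191). Cdt1 rose by 0.68 ± 0.12 and Orc6 by 0.34 ± 0.09. On the probe set used, Orc1 was the 1 gene whose RSQ arrays all lay below the OVA arrays, against 16.1% of all genes. Its change of -0.23 ± 0.10 did not pass the test. With each gene's probe sets averaged, 32 of 32 changes were above 0, so the direction of Orc1 depends on the probe set.

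Prim1 read 6.86, 6.90 and 7.03 for RSQ and 5.92, 6.23 and 6.33 for OVA in C57BL/6, without overlap, and rose 1.70-fold (0.77 ± 0.12). Pola1 rose by 0.42 ± 0.11, and Pole had a change of 0.64 ± 0.19 with adjusted p = 0.0517. The clamp gene Pcna read 10.55, 10.47 and 10.59 for RSQ and 10.13, 10.29 and 10.28 for OVA, and rose by 0.30 ± 0.07. Its loader genes rose by 0.48 ± 0.11 (Rfc3), 0.64 ± 0.11 (Rfc4) and 0.40 ± 0.09 (Rfc5). Rfc3 had not passed the test for ovalbumin. Lig1 rose by 0.48 ± 0.10, Uhrf1 by 0.64 ± 0.13, Mcm10 by 0.50 ± 0.08 and Gins1 by 0.37 ± 0.10. The genes that missed the test included Fen1 (0.27 ± 0.09), Chaf1b (0.52 ± 0.17), Gins2 (0.15 ± 0.13), Cdc45 (0.01 ± 0.08) and all 3 S phase entry genes, Ccne2 (0.32 ± 0.14), E2f1 (0.17 ± 0.09) and Ccne1 (0.07 ± 0.16). Other probe sets of Fen1, Cdc45 and Gins2 rose in this comparison, by 0.60, 0.59 and 0.56.

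In A/J lungs the same comparison gave small changes, mostly below 0. With resiquimod against ovalbumin 0 of 32 genes rose, where 4.38% of all genes rose, and 2 fell, where 5.39% of all genes fell, so the share of 2 in 32 lies near that background. The median change was -0.10, against -0.00261 for all genes, with a range from -0.54 to 0.36. The 3 RSQ arrays lay below the 3 OVA arrays for 10 genes and above them for 1. Of all genes 13.7% lay below and 12.1% above.

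Uhrf1 read 5.93, 5.76 and 5.50 on the A/J RSQ arrays and 6.36, 6.10 and 6.34 on the OVA arrays, and fell by 0.54 ± 0.13 (adjusted p = 0.0157). Mcm3 read 6.61, 6.60 and 6.33 for RSQ and 6.93, 6.76 and 6.91 for OVA, and fell by 0.36 ± 0.10 (adjusted p = 0.0354). In both genes all RSQ arrays were below all OVA arrays. Both calls were lost without A/J OVA 1, without A/J OVA 3 and without A/J RSQ 3, which left 0 genes called by limma, and without A/J OVA 2 the count was 5. On the 10 arrays without squamous mucosa transcripts, with 1 array for A/J OVA, 0 genes were called by limma, with 6 at an unadjusted p under 0.05 and a median change of -0.14. That count is no replicated check of the 2 calls. Rrm2 read 7.39, 7.12 and 7.08 for RSQ and 6.93, 6.55 and 7.04 for OVA. Its change of 0.36 ± 0.15 (adjusted p = 0.206) was the largest above 0, and every RSQ array exceeded every OVA array. Tk1 read 5.99, 5.74 and 5.71 for RSQ and 6.06, 5.34 and 5.80 for OVA, which overlapped. Cdc6 had a change of -0.46 ± 0.18, Pole of -0.41 ± 0.19, Ccne2 of -0.35 ± 0.14, Mcm5 of -0.28 ± 0.12 and Mcm6 of -0.01 ± 0.08, none past the test.

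The third question was whether the effect of resiquimod differed between the strains, tested as the A/J change minus the C57BL/6 change. It did for 13 of 32 genes, all 13 with a lower value in A/J and all 13 among those that rose in C57BL/6, where 0.879% of all genes were called lower. The median difference was -0.55, with a range from -1.18 to 0.07, and 30 of 32 genes had a value below 0. The genes called were 5 of the 6 helicase subunits, 3 of the 4 clamp and loader genes, both loading factors Cdc6 and Cdt1, and Uhrf1, Tk1 and Lig1.

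Uhrf1 had the largest difference, -1.18 ± 0.18 (adjusted p = 0.00668), with 5.93, 5.76 and 5.50 for RSQ and 6.36, 6.10 and 6.34 for OVA in A/J, and 6.64, 6.78 and 6.93 for RSQ and 5.96, 6.39 and 6.09 for OVA in C57BL/6. The RSQ arrays were the lower set in A/J and the higher set in C57BL/6. Mcm5 had a difference of -0.99 ± 0.17 (adjusted p = 0.0135), with 7.43, 7.35 and 7.05 for RSQ and 7.58, 7.37 and 7.71 for OVA in A/J. Those A/J values overlapped, while the C57BL/6 groups given above did not. Rfc4 read 5.41, 5.11 and 5.41 for RSQ and 5.51, 5.43 and 5.69 for OVA in A/J, and 6.02, 6.06 and 6.10 for RSQ and 5.34, 5.63 and 5.30 for OVA in C57BL/6. Like Uhrf1, it was lower with resiquimod on every A/J array and higher on every C57BL/6 array, a difference of -0.87 ± 0.16 (adjusted p = 0.0165). Rfc5 had a difference of -0.69 ± 0.12, Mcm3 of -0.88 ± 0.14, Mcm6 of -0.70 ± 0.11 and Lig1 of -0.69 ± 0.14.

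In 9 genes (Mcm2, Mcm3, Mcm4, Uhrf1, Pcna, Cdc6, Rfc4, Rfc5 and Lig1) the 3 RSQ arrays lay below the 3 OVA arrays in A/J and above them in C57BL/6, although only Mcm3 and Uhrf1 of these passed the test in A/J. The share of all genes with this opposite pattern was not computed, so the count of 9 has no background beside it. Pole had a difference of -1.05 ± 0.27, near that of Mcm5, but with a wider error it missed the test (adjusted p = 0.0853). Rrm2, the gene with the largest ovalbumin effect, had a difference of -0.49 ± 0.22 (adjusted p = 0.345), and its change was above 0 in both strains. On the probe sets used, Orc1 (0.07 ± 0.14) and Cdc45 (0.03 ± 0.12) were the genes with values above 0. With each gene's probe sets averaged, 0 of 32 differences were above 0.

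**Figure D3:**
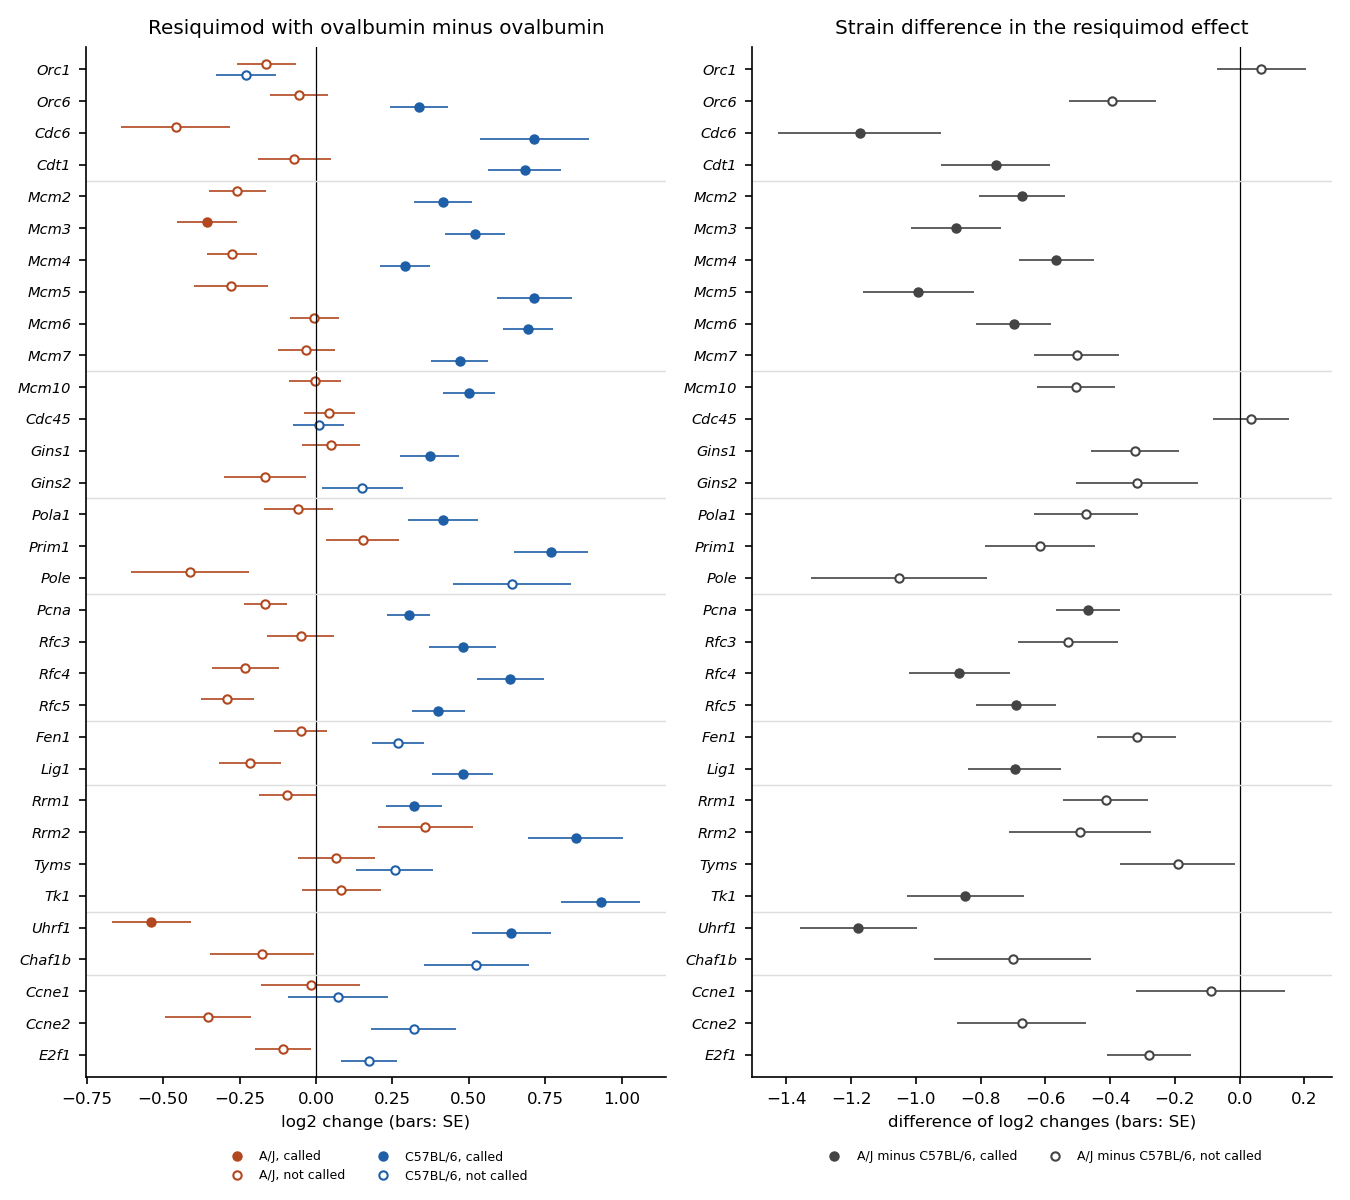
Left, log2 change between resiquimod with ovalbumin and ovalbumin alone for each of the 32 genes in A/J and in C57BL/6; right, the A/J change minus the C57BL/6 change, with bars of 1 SE and filled points for an adjusted p under 0.05. C57BL/6 points lie mostly right of 0, A/J points around and left of 0, and 30 of the 32 differences lie below 0.

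The count of 13 fell when single arrays were left out, to 5 without A/J OVA 3, 6 without A/J RSQ 3, C57BL/6 OVA 1 or C57BL/6 RSQ 3, 7 without A/J OVA 1, and 8 without C57BL/6 OVA 2, C57BL/6 OVA 3 or C57BL/6 RSQ 1, while the median stayed between -0.62 and -0.49. Mcm3, Mcm5, Mcm6, Uhrf1 and Rfc5 were called in all 18 fits that left out 1 array, whereas Tk1 was lost in 15, Cdt1 in 13, Cdc6 in 12, Pcna in 10, Lig1 in 8, Mcm4 in 6, Mcm2 in 5 and Rfc4 in 2. With limma fitted on the 12 arrays of the groups compared, 4 genes were called. On the 10 arrays without squamous mucosa transcripts, with 1 array for A/J OVA, 0 were called by limma, with 22 lower at an unadjusted p under 0.05, a median of -0.50 and 31 of 32 values below 0, which is likewise no replicated check.

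Levels were also compared between the strains within each treatment, and most replication genes were lower in A/J with resiquimod. In the RSQ groups 26 of 32 genes were lower in A/J than in C57BL/6 and 0 were higher, where 8.92% of all genes were lower, with a median difference of -0.63. The 3 A/J RSQ arrays lay below the 3 C57BL/6 RSQ arrays for 28 genes, against 16.1% of all genes. Mcm6, for example, read 8.23, 8.11 and 7.98 in A/J RSQ and 8.73, 8.74 and 8.80 in C57BL/6 RSQ lungs, a difference of -0.65 ± 0.08. The largest differences were those of Pole (-1.08 ± 0.19), Uhrf1 (-1.06 ± 0.13) and Mcm5 (-0.99 ± 0.12). The 10-array fit called 27 genes here, with a median of -0.72. In the OVA groups 1 gene was lower in A/J, where 4.98% of all genes were lower, and in the PBS groups 1 gene, where 4.56% of all genes were lower, with medians of -0.03 in each. That gene was Orc6, which read 6.15, 6.29 and 6.19 in A/J RSQ, 6.15, 6.15 and 6.49 in A/J OVA and 6.18, 6.04 and 6.17 in A/J PBS lungs. In C57BL/6 it read 7.01, 6.82 and 7.09 for RSQ, 6.62, 6.57 and 6.72 for OVA and 6.50, 6.62 and 6.64 for PBS. It was lower on every A/J array than on every C57BL/6 array of the same treatment, with differences of -0.77 ± 0.09 in RSQ, -0.37 ± 0.09 in OVA and -0.45 ± 0.09 in PBS lungs, and whether a sequence difference under its probes takes part was not tested. The OVA call of Orc6 was lost in 3 of 18 fits that left out 1 array, and both it and the PBS call were lost on the 10 arrays, with 1 A/J OVA and 1 C57BL/6 PBS array, where limma called 0 genes with 7 and 4 at an unadjusted p under 0.05.

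**Figure D4:**
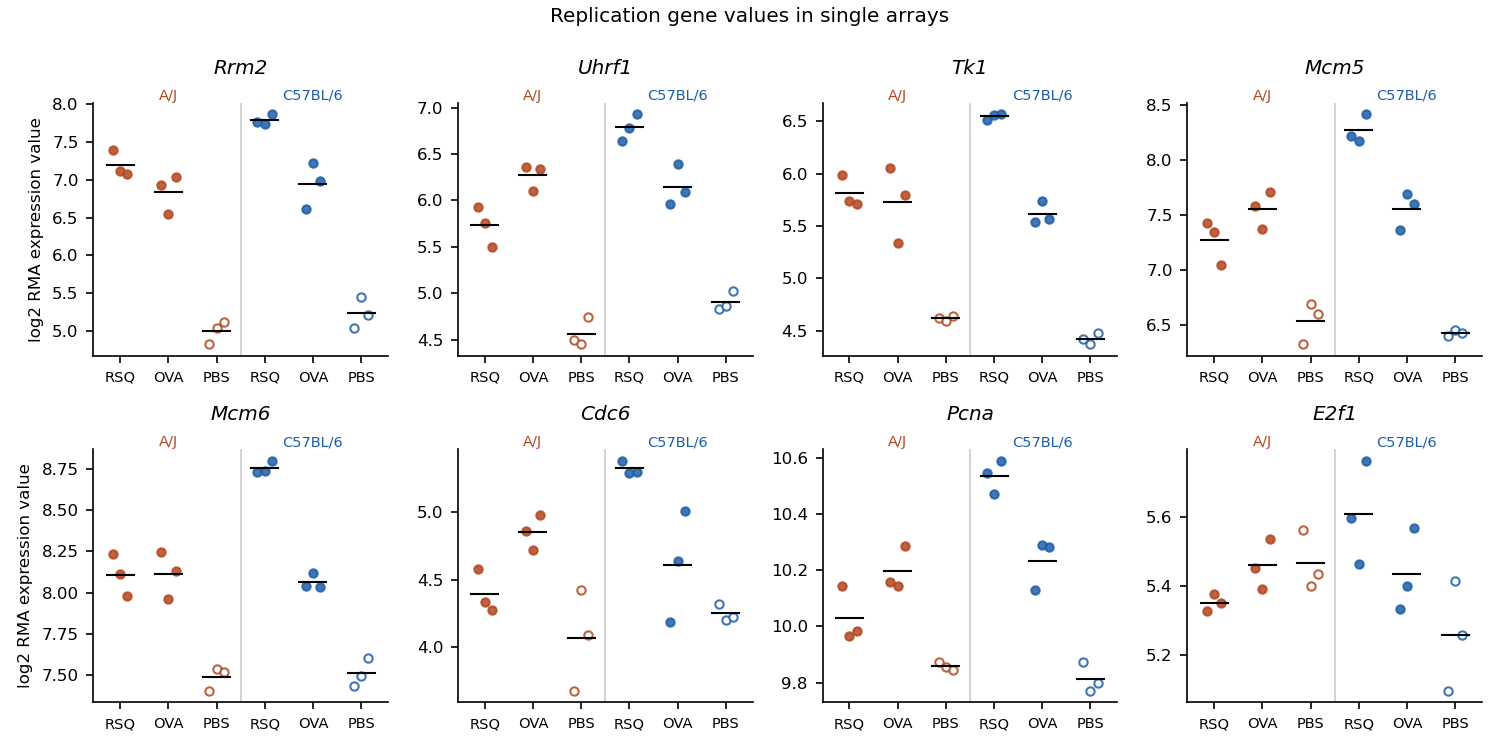
Log2 signal on each of the 18 arrays for Rrm2, Uhrf1, Tk1, Mcm5, Mcm6, Cdc6, Pcna and E2f1, with columns for resiquimod with ovalbumin (RSQ), ovalbumin (OVA) and PBS in A/J and then in C57BL/6, 1 point per mouse (open for PBS) and a line at the mean of 3. In Mcm6 the C57BL/6 RSQ arrays read 8.73 to 8.80, above the A/J RSQ arrays at 7.98 to 8.23.

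Set directly against the PBS groups, which shares the RSQ arrays with the comparisons above, replication genes were mostly higher in RSQ lungs in both strains. In C57BL/6 this uses the PBS arrays that were low in Nnt, so a possible subline difference and the treatment cannot be told apart there. In A/J 11 of 32 genes rose against PBS, where 5.86% of all genes rose, with a median of 0.31. In C57BL/6 27 of 32 rose, where 9.61% of all genes rose, with a median of 0.99. Rrm2 reached 7.39, 7.12 and 7.08 in A/J RSQ against 4.83, 5.05 and 5.12 in A/J PBS lungs (4.59-fold), and 7.76, 7.73 and 7.86 in C57BL/6 RSQ against 5.04, 5.45 and 5.22 in C57BL/6 PBS lungs (5.86-fold). Tk1 was 4.35-fold and Mcm5 3.57-fold higher in C57BL/6 RSQ than in C57BL/6 PBS lungs. E2f1 read 5.60, 5.46 and 5.76 for RSQ and 5.10, 5.41 and 5.26 for PBS in C57BL/6, a rise of 0.35 ± 0.09, and was called in no other comparison and not without C57BL/6 PBS 1 or C57BL/6 RSQ 3. On the 10 arrays without squamous mucosa transcripts 5 genes rose in A/J, and 22 rose in C57BL/6 against 1 remaining PBS array.

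Further genes of the cell cycle were followed in fixed lists. Of 44 other measured replication genes, 6 rose with ovalbumin in A/J and 4 in C57BL/6, led in both by Asf1b, a histone chaperone (0.94 ± 0.13 in A/J and 0.89 ± 0.13 in C57BL/6), and Clspn, an adaptor of the fork checkpoint (0.82 ± 0.12 and 0.67 ± 0.12). With resiquimod against ovalbumin 11 rose and 1 fell in C57BL/6, with Dbf4, the activator of the Cdc7 kinase that fires origins, at 0.87 ± 0.14 and Wdhd1 at 0.67 ± 0.10. In A/J 0 rose and 2 fell, Dscc1, a subunit of an alternative clamp loader (-0.38 ± 0.08), and Pole3 (-0.28 ± 0.08), a share below the 5.39% of all genes that fell. The resiquimod effect was lower in A/J for 3 of the 44, Clspn (-0.94 ± 0.16), Pole2 (-0.76 ± 0.16) and Dscc1 (-0.62 ± 0.11), with a list median of -0.26.

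Of 27 genes that control the passage into S phase, 1 rose with ovalbumin in A/J, near the 3.20% of all genes that rose there. It was the cyclin gene Ccna2 (1.38 ± 0.20). In C57BL/6 3 rose, where 1.44% of all genes rose, namely Ccna2 (0.99 ± 0.20), E2f7 (0.92 ± 0.15) and E2f8 (0.56 ± 0.12). With resiquimod against ovalbumin 7 rose in C57BL/6, with Ccna2 at 1.06 ± 0.20 and the cyclin gene Ccnd1 at 0.45 ± 0.08. In A/J 2 rose and 2 fell, not far from the 4.38% and 5.39% of all genes that did so. Those that rose were Cdkn1a, which encodes the cyclin-dependent kinase inhibitor p21 (0.59 ± 0.16), and Rbl2, a member of the retinoblastoma family (0.27 ± 0.08), and those that fell were E2f3 (-0.45 ± 0.10) and Tfdp1, an E2F partner (-0.39 ± 0.09). Ccnd1 was the 1 gene of this list with a strain difference in the resiquimod effect (-0.58 ± 0.12).

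Of the 23 measured mitosis genes 16 rose with ovalbumin in A/J and 16 in C57BL/6, with medians of 0.85 and 0.83. With resiquimod against ovalbumin 20 rose in C57BL/6 (median 0.72) and 2 in A/J (median 0.19), namely the proliferation marker Mki67 (0.68 ± 0.13) and the mitotic cyclin gene Ccnb2 (0.58 ± 0.16). The mitosis median in A/J was thus above 0 where that of the replication genes was -0.10, a difference that was not tested. The strain difference in the resiquimod effect was called by limma for 0 of the 23, with 13 at an unadjusted p under 0.05 and a median of -0.49. Of 9 measured genes of fork repair, limma called 0 for ovalbumin in either strain (1 in A/J and 4 in C57BL/6 at an unadjusted p under 0.05), 3 rose with resiquimod in C57BL/6, among them the checkpoint kinase gene Chek1 (0.82 ± 0.14), and Chek1 had a strain difference of -0.96 ± 0.20.

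**Figure D5:**
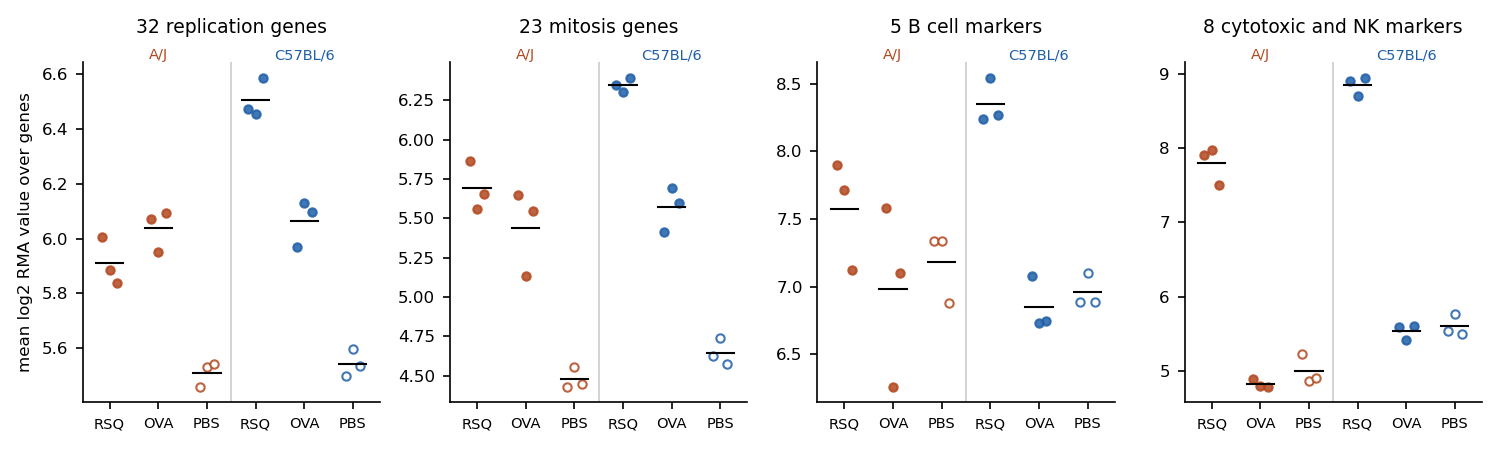
Mean log2 signal of gene lists on each array, with columns for resiquimod with ovalbumin (RSQ), ovalbumin (OVA) and PBS in A/J and then in C57BL/6 and 1 point per mouse. The mean of the 32 replication genes spans 6.46 to 6.59 in C57BL/6 RSQ lungs and 5.84 to 6.01 in A/J RSQ lungs.

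Markers of other cell types moved in the same comparisons, and their part in the results was not tested. The mean over the 32 replication genes was 5.84 to 6.01 for RSQ, 5.95 to 6.09 for OVA and 5.46 to 5.54 for PBS in A/J, and 6.46 to 6.59 for RSQ, 5.97 to 6.13 for OVA and 5.50 to 5.60 for PBS in C57BL/6. With resiquimod against ovalbumin all 5 measured B cell markers rose in C57BL/6 (median 1.53) and 0 by limma in A/J (median 0.65, with 3 at an unadjusted p under 0.05). The B cell list mean was 7.12 to 7.90 in A/J RSQ and 6.26 to 7.58 in A/J OVA lungs, and 8.24 to 8.54 in C57BL/6 RSQ and 6.73 to 7.08 in C57BL/6 OVA lungs. All 8 markers of cytotoxic and NK cells rose in both strains, with list means of 7.50 to 7.98 in A/J RSQ and 4.79 to 4.89 in A/J OVA lungs, and 8.70 to 8.94 in C57BL/6 RSQ and 5.41 to 5.61 in C57BL/6 OVA lungs. Of 8 T cell markers 2 rose in C57BL/6 and 1 fell in A/J, with list means of 5.23 to 5.57 in A/J RSQ, 5.52 to 5.84 in A/J OVA, 5.83 to 6.05 in C57BL/6 RSQ and 5.51 to 5.58 in C57BL/6 OVA lungs. Macrophage markers rose with ovalbumin, 7 of 8 in A/J and 4 of 8 in C57BL/6, with list means of 9.11 to 9.23 in A/J OVA and 8.18 to 8.26 in A/J PBS lungs, and 8.71 to 8.82 in C57BL/6 OVA and 8.13 to 8.41 in C57BL/6 PBS lungs. With resiquimod against ovalbumin 5 macrophage markers rose and 1 fell in A/J and 6 rose in C57BL/6, with list means of 9.35 to 9.83 in A/J RSQ and 9.35 to 9.47 in C57BL/6 RSQ lungs. Of 5 eosinophil markers 4 fell in A/J, and 1 rose and 1 fell in C57BL/6, and 3 of 5 were called lower for the strain difference in the resiquimod effect, as were 2 of 8 T cell markers, 1 of 8 cytotoxic and NK markers and 1 of 5 B cell markers. The eosinophil list mean was 3.45 to 3.70 in A/J RSQ and 4.11 to 4.35 in A/J OVA lungs, and 3.63 to 3.90 in C57BL/6 RSQ and 3.62 to 3.79 in C57BL/6 OVA lungs, all weak signals. Of 6 measured neutrophil markers 4 rose in A/J and 5 in C57BL/6, with list means of 7.22 to 8.24 in A/J RSQ and 6.18 to 6.20 in A/J OVA lungs, and 7.82 to 8.02 in C57BL/6 RSQ and 6.60 to 7.23 in C57BL/6 OVA lungs. Of 6 fibroblast and matrix genes 1 rose and 4 fell in A/J and 3 fell in C57BL/6, with list means of 8.48 to 9.11 in A/J RSQ and 9.52 to 10.16 in A/J OVA lungs, and 9.14 to 9.51 in C57BL/6 RSQ and 9.82 to 10.18 in C57BL/6 OVA lungs. Of 4 measured erythroid markers 2 fell in each strain, and of 6 endothelial markers 2 rose in each. The erythroid list mean was 4.37 to 4.48 in A/J RSQ and 5.33 to 5.61 in A/J OVA lungs. In C57BL/6 it was 3.87 to 3.97 for RSQ and 5.26 to 5.46 for OVA. Of 5 plasma cell markers 1 rose in each strain, with median changes of 1.06 in A/J and 0.97 in C57BL/6. Their list mean was 8.28 to 9.35 in A/J RSQ and 7.12 to 7.95 in A/J OVA lungs. In C57BL/6 it was 8.10 to 9.11 for RSQ and 7.04 to 7.68 for OVA. For the strain difference limma called 0 of the macrophage, neutrophil, fibroblast, erythroid, plasma cell and endothelial genes, with 3, 1, 4, 2, 0 and 1 at an unadjusted p under 0.05, in that order. The difference between the 3′ and 5′ actin probe sets, a sign of RNA quality, was 0.39 to 0.57 in A/J RSQ and 0.37 to 0.38 in A/J OVA lungs, and 0.34 to 0.45 in C57BL/6 RSQ and 0.42 to 0.67 in C57BL/6 OVA lungs.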

How the data were processed

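Total RNA of 18 whole lungs was measured on Affymetrix arrays, 1 array per mouse. The deposited table holds log2 values that the authors made with RMA, which corrects background, equalises the arrays' distributions and combines probes into 1 value per probe set, per the submitters' processing notes, which also name the affy package and give no versions. Quantile normalisation sets a common distribution, so a shift shared by all genes cannot be seen. Array medians ran from 4.77 to 4.80, arrays of a group correlated at 0.987 to 0.997 across probe sets, and 0 array pairs were identical.

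After 64 control probe sets were left out, 45037 were fitted as 6 group means with limma 3.58.1 in R 4.3.3 (12 residual and 4.30 prior degrees of freedom), with Benjamini-Hochberg adjustment across all 45037 within each of 11 comparisons. Of the probe sets, 34945 name 1 gene in the platform annotation, and gene shares of the background are over 18193 genes. The pipeline was tested on simulated data with independent noise for each probe set and changes in the A/J OVA group only. That simulation held no correlated genes, squamous mucosa arrays or subline difference, so it does not bear on those features of the data. The replication genes, the other lists, the promoter letters and the tests were chosen with earlier results of these data known. Named genes are all 32 measured members and, from each other cell cycle list, up to 4 called genes with the largest change in a comparison, part of which are given. Groups came from the sample labels. Alternatives were the arrays of the compared groups alone, a replicate block, median centring, a trended robust prior, leaving out dim probe sets, averaging a gene's probe sets, leaving out squamous mucosa arrays and leaving out each array. Array files name no genome build, so no probe positions are given.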

Additional observations from a re-analysis of the deposited data

Results flagged for a closer look

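The effect of resiquimod differed between the strains by limma's test of the difference (A/J minus C57BL/6, adjusted p under 0.05) in 13 replication genes, and each value was negative. The difference was -1.18 for Uhrf1, -1.17 for Cdc6, -0.99 for Mcm5, -0.88 for Mcm3, -0.87 for Rfc4, -0.85 for Tk1 and -0.75 for Cdt1. It was -0.70 for Mcm6, -0.69 for Rfc5, -0.69 for Lig1, -0.67 for Mcm2, -0.57 for Mcm4 and -0.47 for Pcna. Of the 13 calls, those of Mcm3, Mcm5, Mcm6, Uhrf1 and Rfc5 were kept in each of the 18 fits that left out 1 array. Among the 7 other alternative fits, the calls of Mcm3, Uhrf1 and Rfc5 were each lost in 1. Those of Mcm5 and Mcm6 were each lost in 2. These 7 include the fit without squamous mucosa arrays, which leaves 1 A/J ovalbumin array and is no replicated check. With limma on only the arrays of the groups compared, 4 genes were called.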

How the results depend on the processing

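No value reversed its direction under any alternative while called. Among the single gene results under the alternatives, 8396 kept their side of the threshold, 286 lost it and 96 gained it. With limma on only the arrays of the groups compared, the count of genes called was 13 for ovalbumin in A/J, 0 for resiquimod against ovalbumin in A/J (8 at an unadjusted p under 0.05), 0 for A/J against C57BL/6 in ovalbumin lungs (4 at an unadjusted p under 0.05) and 4 for the strain difference in the resiquimod effect. The trended robust prior gave 2 for A/J against C57BL/6 in PBS lungs. Leaving out dim probe sets gave 2 there and 4 for resiquimod against ovalbumin in A/J. Averaging a gene's probe sets gave 1 for resiquimod against ovalbumin and 18 for resiquimod against PBS in A/J. Without the 8 arrays high in squamous mucosa transcripts, the count was 2 for ovalbumin in A/J, 5 for ovalbumin in C57BL/6, 0 for resiquimod against ovalbumin in A/J, 8 for it in C57BL/6, 5 for resiquimod against PBS in A/J, and 0 for the strain difference in the resiquimod effect and for A/J against C57BL/6 in PBS and in ovalbumin lungs. In that fit a single array is left for A/J ovalbumin and 1 for C57BL/6 PBS, each assumed to vary like the other groups, so counts that use them are no replicated check. Median centring left each count within 1.5 times its first value.

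Leaving out 1 array gave 13 to 21 genes for ovalbumin in A/J, 11 to 17 for ovalbumin in C57BL/6, 0 to 5 for resiquimod against ovalbumin in A/J and 15 to 23 in C57BL/6. It gave 10 to 12 for resiquimod against PBS in A/J and 25 to 29 in C57BL/6. For A/J against C57BL/6 it gave 1 to 2 in PBS, 0 to 2 in ovalbumin and 23 to 27 in resiquimod lungs. The strain difference gave 5 to 15 for the resiquimod effect and 0 to 0 for the ovalbumin effect. Residuals of arrays with the same replicate number correlated at a mean of 0.06 (from -0.63 to 0.61, 27 of 45 pairs over 0.1). For arrays with different numbers the mean was -0.03. Whether a replicate number marks a shared day or batch cannot be told from these values, and the labels do not say. With a replicate block 20 genes were called for ovalbumin in A/J, 15 in C57BL/6, 22 for resiquimod against ovalbumin in C57BL/6 and 12 for the strain difference in the resiquimod effect, and no count moved by over 1.5 times. Signals near 3.33 limit what Tyms and Ccne2 can show.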
